A study of Mus musculus with 4 samples.

Results

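The forebrain patterning factors described here are 9 transcription factor genes of the anterior neural plate: Six3, Emx2, Otx1, Otx2, Hesx1, Rax, Lhx2, Fezf1 and Sp8. They were found as all probe sets whose single gene symbol in the array's annotation is 1 of these names, which gave 11 of the 45101 probe sets on the array. Six3 had 3 of them and each other gene had 1. Expression was measured in 2 samples of foregut endoderm, cut from the anterior intestinal portal, and in 2 samples of mesoderm and ectoderm, in which heart mesoderm was combined with the mesoderm and ectoderm of the head folds. All came from mouse embryos of the strain ARC/s at embryonic day 8.5 with 4 to 5 somites (from 3 in a source label), with no allele or agent named, and each sample pooled 15 to 20 tissue pieces. The tissues numbered 1 were separated by hand and those numbered 2 after digestion with trypsin and pancreatin, so each experiment held 1 sample of either tissue, and experiment and dissection cannot be told apart.

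At this stage the anterior neural plate lies just above the foregut, and its cells are being set aside for the telencephalon, the eyes and the hypothalamus. OTX2 is required for the fore- and midbrain and is also made in anterior endoderm, where signals that help to keep the overlying plate anterior are released. SIX3 and HESX1 are repressors that keep Wnt and posterior programmes out of the forebrain, RAX and LHX2 act in the eye field, and EMX2, FEZF1 and SP8 act in the telencephalon or in the anterior neural ridge, the signalling border in front of it.

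Start regions of 4 members are shown. Sp8 and Emx2 were far lower in endoderm in both experiments, as was Fezf1, which is not shown. Otx2 and Hesx1 had the smallest differences among the kept probe sets of members in experiment 2. Of several windows of a gene the one with most motif matches is shown, or for Sp8, whose 3 windows hold 1 match each, the first by start. The windows run from 250 bases before to 50 bases after a start site, 5′ to 3′ on the gene's strand. They come from a table of start windows from RefSeq on GRCm38.p6, of which those of 7 of the 9 members were used. Otx1 and Rax are named only. Capitals mark 3 motifs on either strand: TAATCC, the core bound by OTX proteins (GGATTA on the other strand), TAATTA, a core of many homeodomain proteins, which reads the same on both strands, and GGGCGG, the GC box of SP factors. The Emx2 window is chr19:59458440-59458739 (plus strand), that of Sp8 chr12:118846079-118846378 (plus strand), that of Otx2 chr14:48665060-48665359 (minus strand) and that of Hesx1 chr14:27000112-27000411 (plus strand).
Emx2: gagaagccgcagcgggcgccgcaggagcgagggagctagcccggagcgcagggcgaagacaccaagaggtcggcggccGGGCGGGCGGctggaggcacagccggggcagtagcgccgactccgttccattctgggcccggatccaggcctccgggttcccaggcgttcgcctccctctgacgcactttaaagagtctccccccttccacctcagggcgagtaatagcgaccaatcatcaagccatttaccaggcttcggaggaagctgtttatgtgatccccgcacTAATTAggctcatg
Sp8: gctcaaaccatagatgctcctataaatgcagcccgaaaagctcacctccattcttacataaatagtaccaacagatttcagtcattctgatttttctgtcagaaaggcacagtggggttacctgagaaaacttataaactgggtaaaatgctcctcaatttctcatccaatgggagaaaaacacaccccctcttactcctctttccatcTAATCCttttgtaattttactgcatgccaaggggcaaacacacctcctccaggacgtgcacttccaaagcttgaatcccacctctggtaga
Otx2: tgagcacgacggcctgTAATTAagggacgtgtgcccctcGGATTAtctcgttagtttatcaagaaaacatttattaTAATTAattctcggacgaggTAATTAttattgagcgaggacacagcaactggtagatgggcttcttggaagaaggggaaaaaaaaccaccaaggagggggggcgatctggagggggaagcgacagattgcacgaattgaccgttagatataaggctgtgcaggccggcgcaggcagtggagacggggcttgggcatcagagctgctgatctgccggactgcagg
Hesx1: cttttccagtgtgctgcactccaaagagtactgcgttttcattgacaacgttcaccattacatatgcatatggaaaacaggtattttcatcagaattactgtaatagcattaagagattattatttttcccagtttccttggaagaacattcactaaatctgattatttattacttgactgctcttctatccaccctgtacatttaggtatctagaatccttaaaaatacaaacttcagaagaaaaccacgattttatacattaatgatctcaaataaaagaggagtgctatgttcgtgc
The Emx2 window holds 1 TAATTA and 2 GGGCGG matches, which overlap each other. The Otx2 window holds 3 TAATTA and 1 TAATCC match, and the Sp8 window 1 TAATCC match. The Hesx1 window holds none of the 3 motifs, which says only that these letters are not in this window. Of the 13 start windows used, 4 belong to Otx2 and 3 to Sp8, and 1 pair overlaps. Over these 13, TAATCC occurred in 2, TAATTA in 4 and GGGCGG in 4. Among all 32851 windows listed for the mouse, 7.1% held TAATCC, 5.3% held TAATTA and 35.7% held GGGCGG.

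The labels were checked against markers first. Of 11 listed gut endoderm genes 9 were kept. All 9 were at least 2-fold higher in foregut endoderm in both experiments, against a background of 3.54% of 7802 kept genes, although median centring left 8. Not kept were Trh, at 3.70 and 6.49 on endoderm arrays 1 and 2, and Nepn, which did not exceed 2.28 on any array. Foxa1, Foxa2, Cpm, Tmprss2 and Pyy passed the filter described below only through the endoderm arrays. They had to be higher in endoderm, so 3.54% is no background for them. For Sox17, Hhex, Prdm1 and Cdh1 the filter did not fix the direction. Heart genes went against the labels. Their summed level, in log2 intensity over 10 kept genes, was 13.69 and 10.12 in foregut endoderm 1 and 2 and 6.90 and 16.59 in mesoderm and ectoderm 1 and 2. Mesoderm and ectoderm 1 thus showed little heart RNA despite its label, whereas foregut endoderm 1 showed much. The label of foregut endoderm 2 reads ectoderm in 1 field and endoderm in the others, which were used here. Pooled tissue cannot tell fewer cells of a type from less RNA per cell. Across 13288 kept probe sets Pearson's r was 0.93 between the tissues of experiment 1 and 0.91 between those of experiment 2, against 0.87 between the endoderm arrays and 0.81 between the other arrays.

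Values are log2 intensities, and a probe set was kept if 2 or more of the 4 arrays exceeded 5. Kept were 8 of the 11 probe sets, for 8 of the 9 genes. Below the filter were Rax and 2 probe sets of Six3. Each array's lowest value, between 2.249 and 2.284, is called the floor where a probe set lay within 0.1 of it, and a fold against the floor is a lower bound. Differences are foregut endoderm minus mesoderm and ectoderm, and the probe sets of different genes were not set against each other in level.

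Of the 8 kept member probe sets, 7 lay at least 2-fold lower in foregut endoderm in both experiments, and the same 7 lay at least 4-fold lower. They were Six3, Emx2, Otx1, Hesx1, Lhx2, Fezf1 and Sp8, and Otx2 was the exception. Among all kept probe sets 1.00% passed at 2-fold and 0.384% at 4-fold. Emx2, Otx1, Lhx2, Fezf1 and Sp8 were kept only through both mesoderm and ectoderm arrays and so had to be lower in endoderm. Among the 75 probe sets kept in that way 58.7% passed at 2-fold and 40.0% at 4-fold. The median differences of the 8 were -3.37 in experiment 1 and -3.70 in experiment 2, against 0.12 and 0.03 for all kept probe sets. These medians include the 5 genes that had to be lower. For the same 7 genes the 2 tissues did not overlap, where 9.05% of all kept probe sets had both endoderm arrays below both others. For the 5 genes kept through mesoderm and ectoderm alone the filter fixes this outcome, which 100% of such probe sets share, so Six3 and Hesx1 are those for which it was not fixed.

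**Figure D1:**
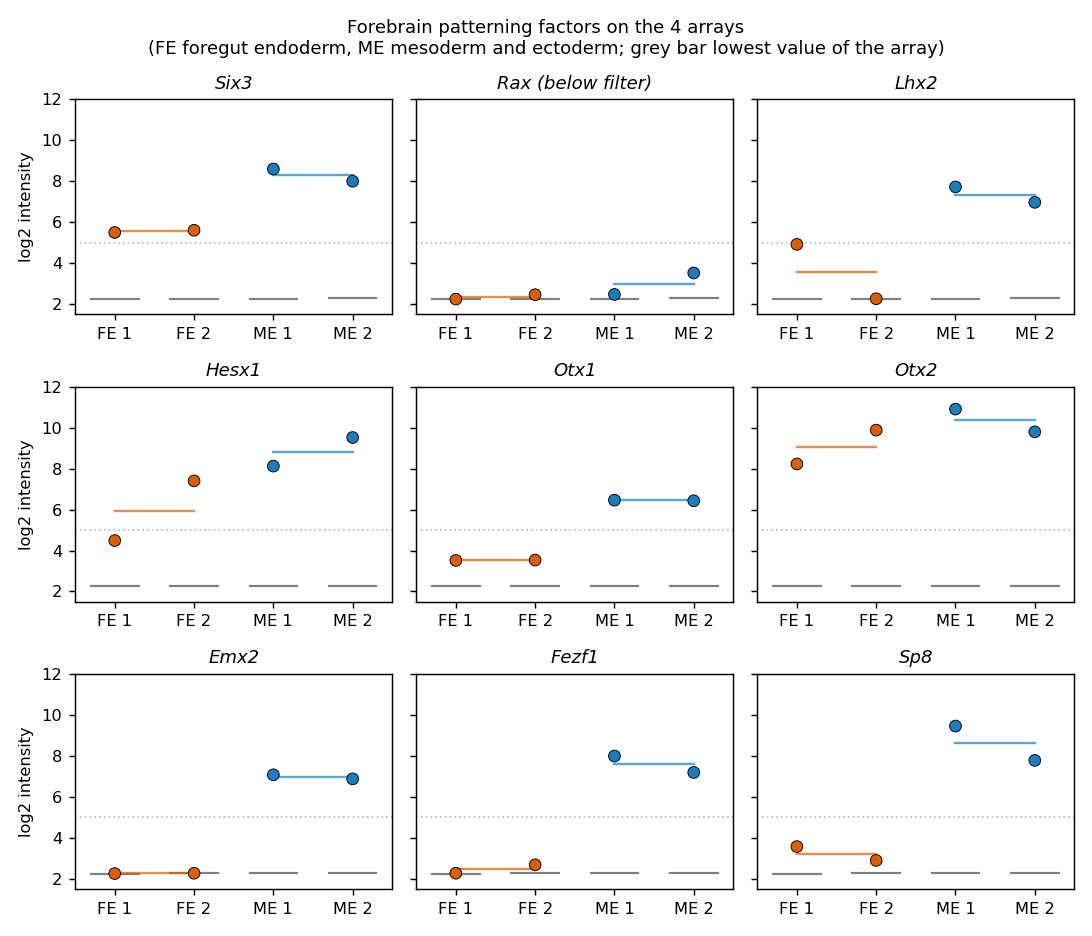
Log2 intensity (vertical axis) of each forebrain factor on the 4 arrays (horizontal axis: FE foregut endoderm, ME mesoderm and ectoderm, numbered by experiment), with 1 point per array, coloured lines at tissue means, grey bars at each array's lowest value and a dotted line at the filter of 5. Six3 is shown by its kept probe set; 7 of the 8 kept genes have both ME points above both FE points, the points of Otx2 overlap, and Rax, below the filter, has a gap of only 0.01 between the tissues and leaves the lowest values clearly only on ME 2, at 3.53.

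None of these differences passed the test across all probe sets. With limma's moderated test and Benjamini-Hochberg adjustment 0 of 13288 probe sets passed (0.00%), and the members' adjusted p-values were 0.724 for Emx2, Fezf1, Otx1, Six3 and Sp8 and 1 for Lhx2, Hesx1 and Otx2. At an unadjusted p under 0.05, limma placed 6 of the 8 lower in endoderm, where 0.790% of all kept probe sets lay, and 0 of the 8 higher, where 2.97% lay. Of these 6, Six3 apart, all were kept through mesoderm and ectoderm alone, and 62.7% of the 75 such probe sets passed in the same way, so the count shows nothing particular to the members. With the experiment as a block it placed 7 of the 8 lower, where 2.69% of all kept probe sets lay. Emx2, Otx1, Lhx2, Fezf1 and Sp8, which had to be lower, are among these 7. The share of probe sets kept in their way was not computed under the block, so this count is no result about the members. With 2 arrays a tissue an exact permutation test of a single gene could not give a two-sided p below 0.333. No label says that the pools came from separate litters, so p-values measure only the spread between these samples. The statements on single genes are therefore descriptions of 4 arrays, set against the spread between the 2 arrays of a tissue.

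Otx2, the paired-type homeobox gene of the fore- and midbrain (probe set 1425926_a_at), was the member whose direction was not shared by the experiments. Its log2 intensity was 8.23 and 9.88 on endoderm arrays 1 and 2, against 10.91 and 9.80 on mesoderm and ectoderm arrays 1 and 2. The endoderm arrays thus held a strong Otx2 signal, and foregut endoderm 2 lay beside mesoderm and ectoderm 2. The difference was -2.68 in experiment 1, a 6.4-fold lower level in endoderm, and 0.08 in experiment 2, which became -0.03 with median centring. The mean difference was -1.30 ± 0.79 (SE, limma), beside an SD of 1.17 between the endoderm arrays and 0.78 between the others, and the tissues overlapped. It ran from -2.12 without foregut endoderm 2 to -0.47 without foregut endoderm 1.

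Otx1, the related gene of the brain and inner ear (probe set 1437601_at), had 3.52 and 3.53 on endoderm arrays 1 and 2, against 6.46 and 6.43 on mesoderm and ectoderm arrays 1 and 2. The arrays of a tissue agreed to within 0.03 log2 units, and the tissues were far apart. Both endoderm values stood 1.266 above their array's lowest value, equal within 0.005, so they moved only as the floor did. Among all kept probe sets 2.64% had such an endoderm pair. The difference of -2.92 ± 0.30 (SE, limma), or at least 7.57-fold, is therefore a bound in size, with -2.94 in experiment 1 and -2.90 in experiment 2. With intensities raised to at least 16 the difference was -2.44, or at least 5.44-fold.

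Six3, the homeobox repressor of the rostral plate and eye field (probe set 1427523_at), measured 5.50 and 5.61 on endoderm arrays 1 and 2, and 8.60 and 8.01 on mesoderm and ectoderm arrays 1 and 2. The endoderm pair differed by 0.11, and the gap to the nearest other array was 2.39. Endoderm was lower by 8.58-fold in experiment 1 and by 5.26-fold in experiment 2, with a mean difference of -2.75 ± 0.38 (SE, limma). This was the only kept member besides Otx2 with both endoderm arrays above the filter. The other Six3 probe sets, 1426637_a_at and 1426638_at, were at the floor on all 4 arrays, between 2.25 and 2.29, so the Six3 result rests on 1 of 3 probe sets.

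Rax, the homeobox gene of the retina and its eye field precursors (probe set 1418558_at), stayed below the filter. It measured 2.25 and 2.47 on endoderm arrays 1 and 2, and 2.48 and 3.53 on mesoderm and ectoderm arrays 1 and 2. Foregut endoderm 1 was at the floor, and foregut endoderm 2 and mesoderm and ectoderm 1 both stood 0.20 above their array's lowest value, equal within 0.005. Only mesoderm and ectoderm 2 left these levels, at an intensity of 11.5, and no difference between the tissues was detectable for Rax at this signal.

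Hesx1, the homeobox repressor of the anterior plate and pituitary primordium (probe set 1420604_at), measured 4.49 and 7.40 on endoderm arrays 1 and 2, and 8.12 and 9.52 on mesoderm and ectoderm arrays 1 and 2. Array 2 of each tissue was the higher, and the highest endoderm value came within 0.72 of the lowest other value. Endoderm was lower by 12.4-fold in experiment 1 and by 4.34-fold in experiment 2. The mean difference was -2.88 ± 1.23 (SE, limma) with an unadjusted p of 0.084, and with the experiment as a block the SE was 0.50 and the unadjusted p 0.011 (adjusted p = 0.435), so Hesx1 is the seventh gene counted there. Without a block it ran from -4.33 without foregut endoderm 2 to -1.42 without foregut endoderm 1. Within tissues Hesx1 was 7.53-fold higher in foregut endoderm 2 than in 1 and 2.63-fold higher in mesoderm and ectoderm 2 than in 1.

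Lhx2, a LIM homeobox gene needed for the eye and the cerebral cortex (probe set 1418317_at), measured 4.92 and 2.27 on endoderm arrays 1 and 2, and 7.73 and 6.98 on mesoderm and ectoderm arrays 1 and 2. It was at the floor in foregut endoderm 2, while foregut endoderm 1 was just under the filter and 6.30-fold higher. Endoderm was lower by 7.0-fold in experiment 1 and by at least 26.1-fold in experiment 2, or at least 7.88-fold with intensities raised to at least 16. The mean difference of -3.76 ± 1.06 (SE, limma) became -2.43 without foregut endoderm 2 and -5.09 without foregut endoderm 1. Of 9 kept general neural genes, 6 were higher in foregut endoderm 1 than in 2 by over 0.1, among them Sox1 at 6.07 and 3.31, and 3 were lower, Sox2, Sox3 and Sox21. Of 10 midbrain and hindbrain genes on the array 4 were higher in foregut endoderm 1, 3 were lower and 3 lay within 0.1. The median of the general neural genes was 6.07 and 4.69 and their summed level 11.93 and 12.03 in foregut endoderm 1 and 2, and their part in the Lhx2 value was not tested.

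Emx2, the homeobox gene of the dorsal telencephalon (probe set 1456258_at), measured 2.25 and 2.27 on endoderm arrays 1 and 2, and 7.07 and 6.87 on mesoderm and ectoderm arrays 1 and 2. Both endoderm arrays were at the floor, so endoderm was at least 26.3-fold lower, by at least 28.3-fold in experiment 1 and at least 24.4-fold in experiment 2. The difference of -4.72 ± 0.31 (SE, limma) stayed between -4.82 and -4.62 when any 1 array was omitted. Because the endoderm values moved only with the floor, their small spread measures no replicate error. These bounds hold at the deposited GC-RMA minimum, and with intensities raised to at least 16 the difference was -2.97, or at least 7.85-fold.

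Fezf1, a zinc finger repressor of the forebrain and olfactory system (probe set 1429991_at), measured 2.27 and 2.68 on endoderm arrays 1 and 2, and 7.99 and 7.19 on mesoderm and ectoderm arrays 1 and 2. The first endoderm value was at the floor and the second just above it. Endoderm was lower by at least 52.8-fold in experiment 1 and by 22.8-fold in experiment 2, with a mean difference of -5.12 ± 0.45 (SE, limma). With intensities raised to at least 16 these folds were at least 15.9 and 9.11.

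Sp8, a zinc finger gene active in the anterior neural and limb ridges (probe set 1440519_at), measured 3.57 and 2.89 on endoderm arrays 1 and 2, and 9.45 and 7.78 on mesoderm and ectoderm arrays 1 and 2. Both endoderm values lay below the filter. On the deposited scale endoderm was lower by 59.1-fold in experiment 1 and by 29.6-fold in experiment 2, with a mean difference of -5.39 ± 0.73 (SE, limma). With intensities raised to at least 16 these folds were at least 43.8 and 13.7. Mesoderm and ectoderm 2 lay 3.20-fold below mesoderm and ectoderm 1.

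**Figure D2:**
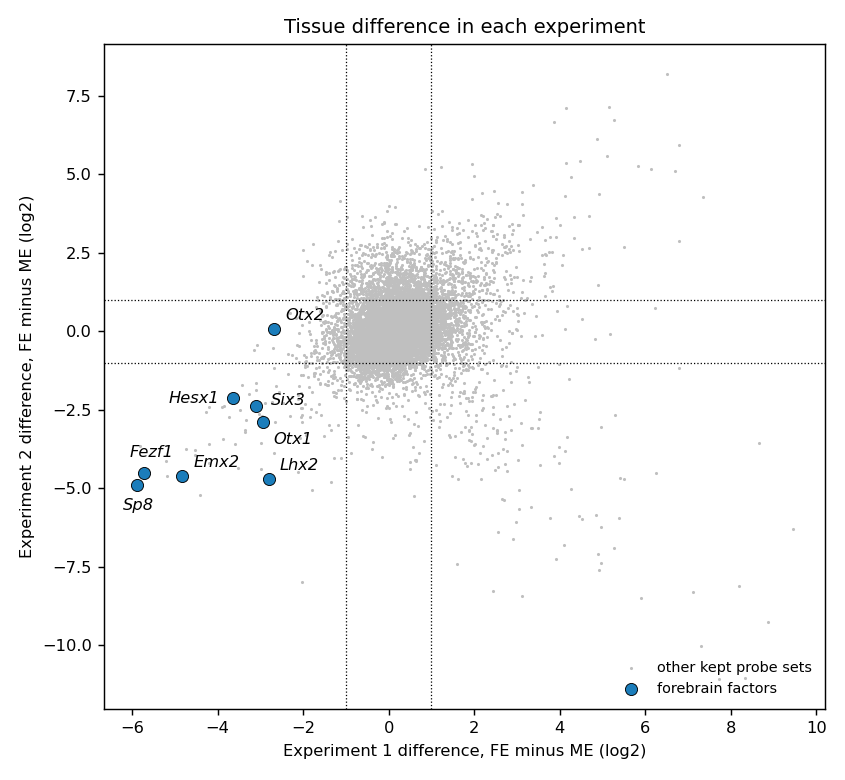
Difference foregut endoderm (FE) minus mesoderm and ectoderm (ME) in log2 units in experiment 1 (horizontal axis) and experiment 2 (vertical axis) for all 13288 kept probe sets, with the 8 forebrain factors as large labelled points and dotted lines at 2-fold. Of these, 7 lie in the lower left corner past both lines, and Otx2 lies at -2.68 and 0.08.

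Members also differed between the 2 arrays of the same tissue. In mesoderm and ectoderm 7 of the 8 kept probe sets were lower on array 2 than on array 1. Their differences of array 2 minus array 1 ran from -0.03 for Otx1 to -1.68 for Sp8, while that of Hesx1 was 1.40. By over 0.1, 6 were lower and 1 was higher, and Otx1 lay within 0.1. The share of all kept probe sets lower on array 2 was not computed, so this count is no result about the members. Over all kept probe sets the median of the difference of array 2 minus array 1 was 0.00. Kept heart genes moved the other way, with medians of 3.70 on array 1 and 12.99 on array 2. Of 10 midbrain and hindbrain genes on the array, 4 were lower on array 2 by over 0.1, 1 was higher and 5 lay within 0.1. The 4 include En2 and En1 of the midbrain, named after their values were seen, with 7.97 and 4.91 on array 1 and 3.85 and 2.29 on array 2. The part of these markers in the members' values was not tested. In foregut endoderm, array 2 was higher than array 1 for Hesx1 by 2.91 and for Otx2 by 1.65 log2 units, while the difference was -2.65 for Lhx2 and between -0.68 and 0.41 for the other 5.

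**Figure D3:**
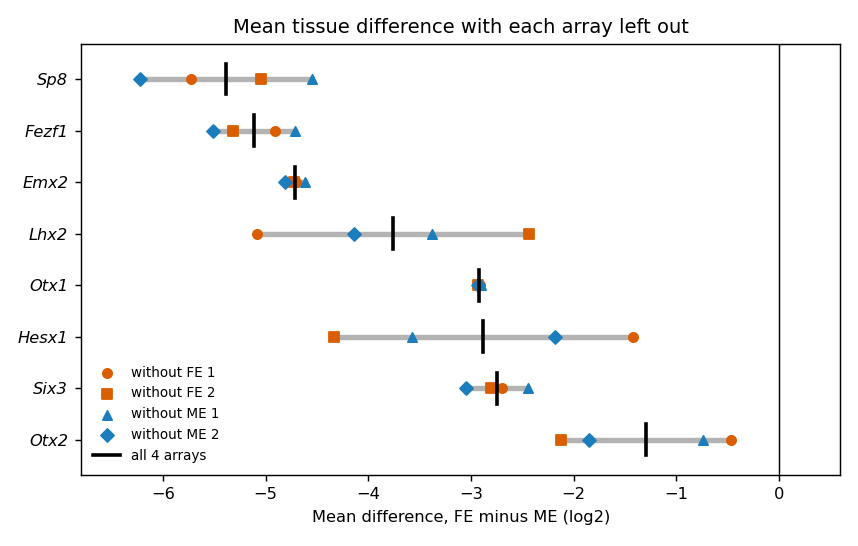
Mean difference FE minus ME in log2 units (horizontal axis) of the 8 kept forebrain factors (vertical axis), from all 4 arrays (black bar) and with 1 array left out (symbols; grey bar, their range). For Emx2 and Otx1 the endoderm pair moves only with the floor, so leaving out an FE array could not move them. Hesx1, Lhx2 and Otx2 depended most on which endoderm array was left out, and no value crossed 0.

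Other genes of the forebrain programme were taken from lists chosen with earlier results of these data known, 1 probe set a gene. Counts are of genes at least 2-fold apart in both experiments, where the background was 1.24% of 7802 kept genes lower and 3.54% higher in endoderm, and 0 list genes passed limma's adjusted test. Of the genes counted below, Pax6, Dmrta1, Zic1, Zic2 and Pax3 were kept through mesoderm and ectoderm alone and had to be lower. Among the 75 probe sets kept in that way 58.7% passed. Tbx3, Tbx1 and Foxa2 were kept through endoderm alone and had to be higher. Of 20 other forebrain and eye field factors 18 were on the array and 6 were kept. Pax6, Dmrta1 and Pou3f1 were lower in endoderm and Tbx3 was higher. Pax6, the paired-box factor of eye and forebrain, measured 3.22 and 2.46 on endoderm arrays 1 and 2, and 7.97 and 6.20 on mesoderm and ectoderm arrays 1 and 2. The POU factor Pou3f1 differed by -1.79 and -5.04 in experiments 1 and 2. Tbx3, a T-box factor that the hypothalamus and many other tissues use, differed by 3.37 and 4.66. Foxd1 and Dmrta2 had opposite signs, at 0.72 and -3.86 for Foxd1 and at -0.68 and 1.39 for Dmrta2. Below the filter, the eye field gene Six6 measured 3.94 and 2.78 on endoderm arrays 1 and 2, and 5.49 and 4.88 on mesoderm and ectoderm arrays 1 and 2, and Vax1 at 3.66 and 3.89 against 4.87 and 5.89.

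Of 9 kept general neural plate markers, 3 were lower and 0 higher. Zic1 differed by -5.18 and -4.61, Zic2 by -1.94 and -3.29 and Sox1 by -1.83 and -2.73 in experiments 1 and 2. Sox2, which the foregut epithelium also uses, measured 10.57 and 11.71 on endoderm arrays 1 and 2, and 11.63 and 11.73 on mesoderm and ectoderm arrays 1 and 2. As for Otx2, its difference was near 0 in experiment 2, at -0.03, and lower in endoderm in experiment 1, at -1.06. Of 7 kept neural crest genes 2 were lower, Pax3 and Tfap2a, and of 5 kept head mesenchyme genes 0 were lower and 2 were higher, Prrx1 and Tbx1. Quantile normalization and median centring each left 1 higher, as Prrx1 fell to 0.92 and 0.97 in experiment 2. Another 2 had opposite signs in experiments 1 and 2, Twist1 at 2.17 and -4.71 and Pdgfra at 1.96 and -3.26. Foxc1 was at 1.80 and 0.78. Six6, Vax1, Sox2 and, further on, the genes of the signal list below the filter were named after their values were seen.

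Of 11 listed ridge and midline signals and feedback genes of FGF signalling, 5 were kept, the signals Shh and Bmp7 and the feedback genes Spry1, Spry2 and Dusp6. All 5 were higher in endoderm in both experiments, also after quantile normalization and median centring, though Spry2 by only 0.36 and 0.57. The share of all kept genes that were higher at any size was not computed, so this count is no result about the list. At 2-fold, 2 of the 5 passed in both experiments. These were the morphogen Shh, at 3.15 and 3.71, and Dusp6, a phosphatase of the FGF feedback, at 2.47 and 1.88. The listed FGF ligands were all dim: Fgf8 and Fgf17, ridge signals, did not exceed 2.33 on any array, and Fgf15 and Fgf18 did not exceed 2.81. Wnt8b, also below the filter, differed by -1.17 and -0.82 and Bmp4 by 0.91 and 1.28 in experiments 1 and 2. Of 8 kept genes of head organiser factors and antagonists, Foxa2 and Hhex passed as higher and the Wnt antagonist Sfrp2 as lower in endoderm. Hhex, a homeobox factor of anterior endoderm, measured 7.05 and 9.58 on endoderm arrays 1 and 2, and 3.76 and 6.64 on mesoderm and ectoderm arrays 1 and 2. Like Hesx1, it was higher on array 2 than on array 1 of each tissue, but it lay higher in endoderm where Hesx1 lay lower. Of the midbrain and hindbrain list 1 of 12 genes was kept, Irx3, at 1.35 and 1.64.

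**Figure D4:**
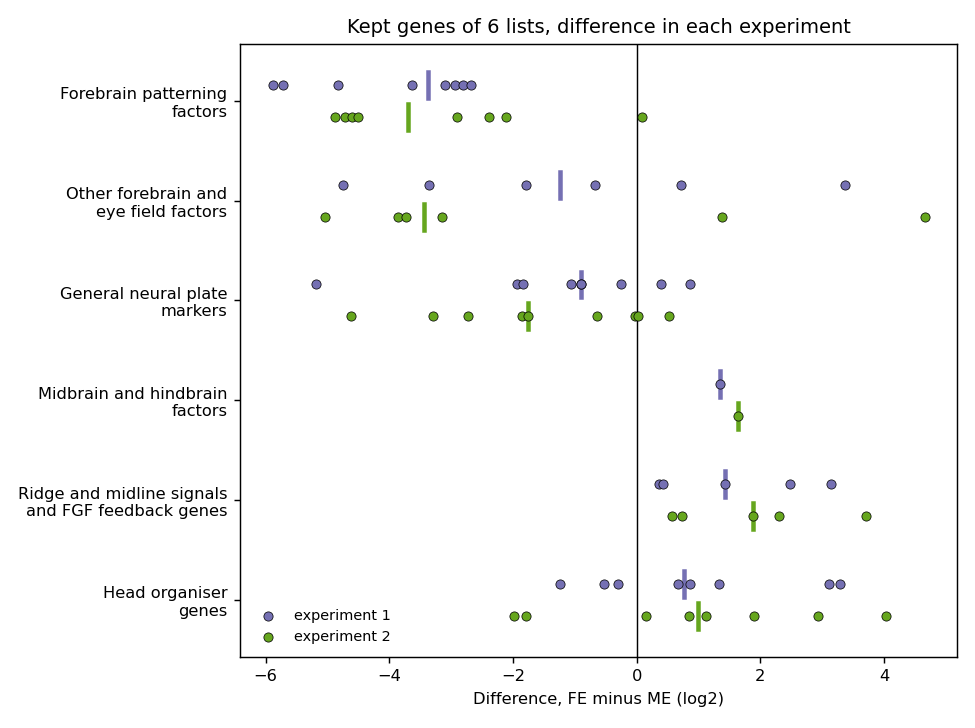
Difference FE minus ME in log2 units (horizontal axis) for the kept genes of 6 lists (vertical axis), with 1 point per gene in experiment 1 (purple) and experiment 2 (green) and a bar at the list's median. The forebrain factors have medians of -3.37 and -3.70. The 5 kept genes of the signal and feedback list, Shh, Bmp7, Spry1, Spry2 and Dusp6, lie above 0 in both experiments. The share of all kept genes above 0 in both was not computed.

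The mean centred profile of the 8 kept members over the 4 arrays was compared with 7794 other kept genes by root mean square distance in log2 units. The 6 nearest were St8sia3 (0.28), Dmrta1 (0.31), Irs4 (0.35), Tfap2c (0.41), Syt11 (0.41) and Ptprz1 (0.42). Each was lower in endoderm in both experiments and lower on array 2 than on array 1 of mesoderm and ectoderm. The choice by nearness to this profile favours both traits, so they are no separate result. Irs4, an adaptor of insulin signalling, measured 8.90 and 8.31 on endoderm arrays 1 and 2, and 12.77 and 11.73 on mesoderm and ectoderm arrays 1 and 2. Tfap2c, an AP-2 factor of surface ectoderm, was at 7.33 and 6.59 against 10.70 and 9.80. Of 4 kept genes listed as surface ectoderm markers it was the only 1 at least 2-fold lower in both experiments, and 2 were higher. These were Krt8, at 2.33 and 2.25, and Epcam, at 2.87 and 2.70, in experiments 1 and 2. On endoderm arrays 1 and 2 Krt8 measured 10.16 and 12.43 and Epcam 9.26 and 11.74. Their signal there is not read as surface ectoderm. Among the members Otx1 lay closest to their mean profile (0.38) and Otx2 (1.28) and Hesx1 (1.21) farthest, at places 90 and 75 if ranked among the other genes.

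**Figure D5:**
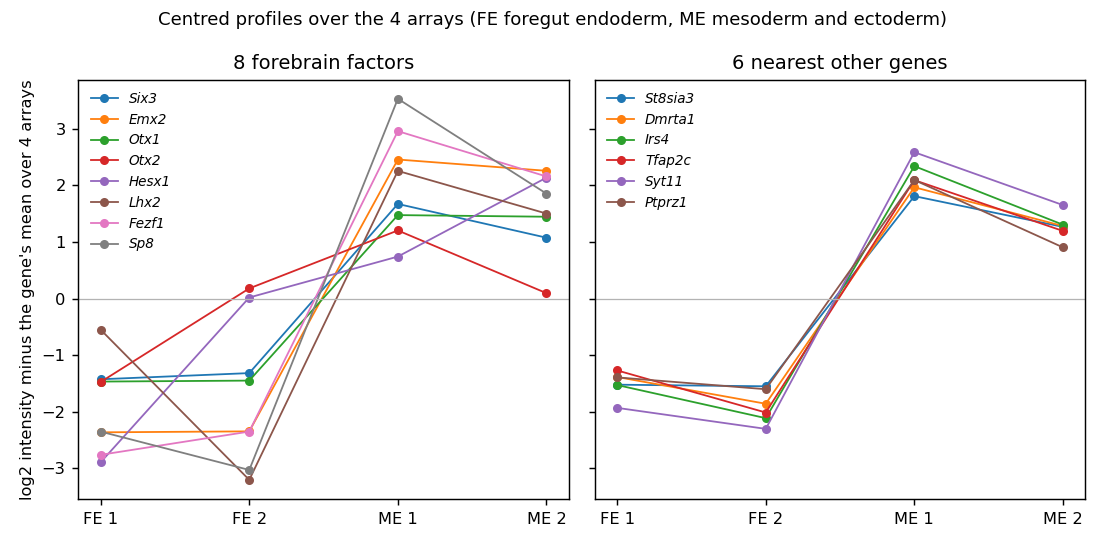
Log2 intensity minus the gene's own mean over the 4 arrays (vertical axis) on each array (horizontal axis: FE foregut endoderm, ME mesoderm and ectoderm), for the 8 kept forebrain factors (left) and the 6 nearest other genes (right). Lines only join the values of the same gene; Otx2 and Hesx1 stand apart on FE 2, where they lie near 0 while the other members lie below -1.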

How the data were processed

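RNA was amplified in 2 rounds, biotin-labelled and put on Affymetrix MOE430 mouse arrays, as the labels' protocols state. The deposited intensity values are GC-RMA values that the authors computed in GenePattern, as the design text says. RMA is named per the submitters' processing notes. GC-RMA sets dim probe sets to near-constant levels, so folds against these are bounds. The linear scale was read from the values (4.75 to 75547), and software versions were not stated. Log2 was taken here, 64 control probe sets were left out, and tissues were compared over 13288 probe sets with limma 3.58.1 in R 4.3.3 (lmFit, eBayes, two-sided, Benjamini-Hochberg), as checked on simulated data. SE are from this fit, SD from 2 arrays. The median array intensity lay between 5.72 and 6.15, and only 2 arrays a tissue limit precision. No label says whether the pools shared litters.

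The numbers pair the samples, because the labels give each number its own way of dissection. Same-numbered deviations from the tissue means had r = 0.56 across kept probe sets. GEO's annotation named the probe sets, and all 11 member probe sets matched RefSeq's gene table of GRCm38.p6, which is not the table of start windows, by gene identifier. The probe set with the highest mean stood for a gene in lists. Named were all members, up to 3 genes a list with the smallest p, those behind counts of 5 or fewer and the 6 nearest profiles. The members and lists were chosen with earlier results of these data known. Alternatives were the replicate block, other scalings, filters, an offset, a raised floor, 1 probe set a gene and each array left out.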

Additional observations from a re-analysis of the deposited data

Results flagged for a closer look

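Opposite signs in the 2 experiments were found for 1 kept member and for 4 of the marker genes named by p-value, and the difference between experiments was not tested, as each experiment held 1 array of either tissue. Otx2 was at 0.08 in experiment 2 (foregut endoderm minus mesoderm and ectoderm, log2) and at -2.68 in experiment 1. The heart genes Tnni1 and Myl2 were at -8.28 and -7.40 in experiment 2 and at 2.43 and 1.59 in experiment 1. Opposite signs were not limited to genes named by p-value. Of 10 kept heart genes 9 had them, among them Tnnt2, at -11.05 in experiment 2 and 8.33 in experiment 1. The globin genes Hbb-bh1 and Hbb-y, of primitive red cells, were at -3.93 and -3.44 in experiment 2 and at 2.42 and 2.72 in experiment 1.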

How the results depend on the processing

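All 96 recomputed mean differences of the 8 kept members, under 12 alternatives each, kept their direction. The replicate block, the changed filters and 1 probe set a gene could not change a difference. For Emx2, Otx1, Lhx2, Fezf1 and Sp8 the filter had already fixed the direction. With all 4 arrays in limma, adjusted p-values stayed above 0.05, with 0.0847 as the lowest, for Otx1 without a filter. The Otx1 endoderm pair moved only with the floor, so its small spread measures no replicate error. Sizes of dim members did move: with 16 added before log2, Emx2 was at -2.77 in place of -4.72, Fezf1 at -3.28 in place of -5.12, Lhx2 at -2.54 in place of -3.76, Otx1 at -1.91 in place of -2.92 and Sp8 at -4.01 in place of -5.39. The count of probe sets called by limma was 0 under each alternative; with the replicate number as a block it was 0 too, with 358 lower and 968 higher at an unadjusted p under 0.05 against 105 and 395 without it, and the block changed no other call. The member count of 7 at 2-fold in both experiments was 6 without foregut endoderm 1, which took out Hesx1, 8 without foregut endoderm 2, which added Otx2, and 7 otherwise. The background count of 133 lower probe sets became 211 with median centring and 204 to 525 with an array left out, where the lone array of a tissue served both experiments and was assumed to vary like the others; it was highest without mesoderm and ectoderm 1 and 313 without foregut endoderm 1 and 253 without mesoderm and ectoderm 2. Splits of lower and higher probe sets moved from 133 and 474 to 196 and 362 with quantile normalization and 211 and 347 with median centring, while their median difference shifted from 0.10 to -0.02 and -0.08. Rax and 2 probe sets of Six3 lay too near the floor for any comparison.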

Other observations

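Noncoding transcripts named after 3 members gave little signal, and were chosen after their values were seen. Otx2os1, beside Otx2, measured 2.81 and 2.83 on endoderm arrays 1 and 2, and 2.87 and 2.85 on mesoderm and ectoderm arrays 1 and 2. Emx2os, antisense to Emx2, did not exceed 2.40 on any array. Six3os1 measured 3.28 and 2.27 on endoderm arrays 1 and 2, and 3.31 and 4.07 on mesoderm and ectoderm arrays 1 and 2, all below the filter, so the pattern of Six3 was not seen on this probe set.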
